A study of Mus musculus with 6 samples.

Results

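The mitochondrial ribosomal protein genes of the mouse were taken as every row whose symbol begins with Mrpl or Mrps followed by a digit, with pseudogene symbols ending in -ps left out. This gave 78 genes of 55549 rows, 49 of the large subunit (Mrpl) and 29 of the small subunit (Mrps), and the rule uses the symbol alone, not the expression values. All 78 are annotated as protein-coding, and 76 passed the filter on low counts, 48 of the large and 28 of the small subunit. Mrpl52 and Mrps34 did not pass it.

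The libraries came from mouse embryos collected at the early 2-cell stage, in 2 groups of 3. The EtP embryos were held from 4 h after fertilization in culture medium with 40 µM ethylparaben, a preservative of the paraben class, and per the series' description most of the exposed embryos stopped developing at this stage. The control libraries are labelled only as control, with no agent named. The labels name no strain and no number of embryos. Since they do not say that replicates are independent collections, the p-values reflect only how these libraries vary, which could be technical variation.

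Mitochondria make a small set of inner-membrane proteins of the respiratory chain and the ATP synthase on ribosomes of their own. The 2 ribosomal RNAs of this mitoribosome are transcribed from mitochondrial DNA, whereas its proteins are encoded in the nucleus, made in the cytosol and imported. Many have counterparts in bacterial ribosomes and others were added during the evolution of mitochondria. The egg supplies the early embryo with both mitochondria and messenger RNA, and at the 2-cell stage the maternal messages are being degraded while the embryo's own genome is switched on.

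Expected counts summed to between 11906206 and 14512216 in EtP libraries and between 11173295 and 14737152 in control libraries. EtP libraries held 19321 to 19713 detected genes and control libraries 25971 to 26103, and TMM factors were 0.738 to 0.833 in EtP and 1.198 to 1.385 in control. CPM below is the count scaled to a common library size after TMM adjustment, a level that is not corrected for length. The summed level of 9 egg and 2-cell markers was 24922 to 27502 CPM in EtP and 8517 to 11957 CPM in control, and 6 of the 9 were called higher, all of them egg genes such as Bmp15 (log2 fold change 1.79). The 2 markers of the 2-cell stage itself were called lower, Zscan4d with 6.30 CPM in EtP and 63.7 CPM in control and Zfp352 with 0.221 CPM in EtP and 83.8 CPM in control (means, n = 3 each). Cumulus cell markers (10 genes) summed to 21.3 to 24.0 CPM in EtP and 22.5 to 47.7 CPM in control. Most of this was Cyp19a1 (means of 17.1 and 22.2 CPM), and Amh and Ptx3 were at 0 in every library. Of the 6 tested, 3 were called lower (Tnfaip6, Ptgs2 and Fshr) and 0 higher, against 18.1% and 12.5% of all genes tested. Sperm markers (8 genes) summed to 2.90 to 3.43 CPM in EtP and 5.84 to 12.9 CPM in control. Smcp, Spem1 and Tnp1 were at 0 in every library, and the 1 tested, Prm2, was called lower. Later embryo markers (6 genes) summed to 18.7 to 31.6 CPM in EtP and 11.7 to 16.4 CPM in control, with Nanog called higher. The part of these differences in the results below was not tested.

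Mitoribosomal protein genes moved in both directions. Of the 76 tested, 11 were higher in EtP and 13 were lower by edgeR's quasi-likelihood test with Benjamini-Hochberg adjustment at 0.05. Over all 14373 genes tested, 12.5% were higher and 18.1% were lower. In the large subunit 8 of 48 members rose (16.7%) and 6 fell (12.5%), and the median log2 fold change was -0.16. In the small subunit 3 of 28 rose (10.7%) and 7 fell (25%), the median was -0.41, and 21 of its 28 values were below 0. The median over all genes tested was -0.19, and 8450 of the 14373 values were below 0. The SD of the log2 fold changes was 0.82 over the members and 1.68 over all genes tested. In bulk libraries such as these, fewer cells of a type and less RNA per cell cannot be told apart.

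**Figure D1:**
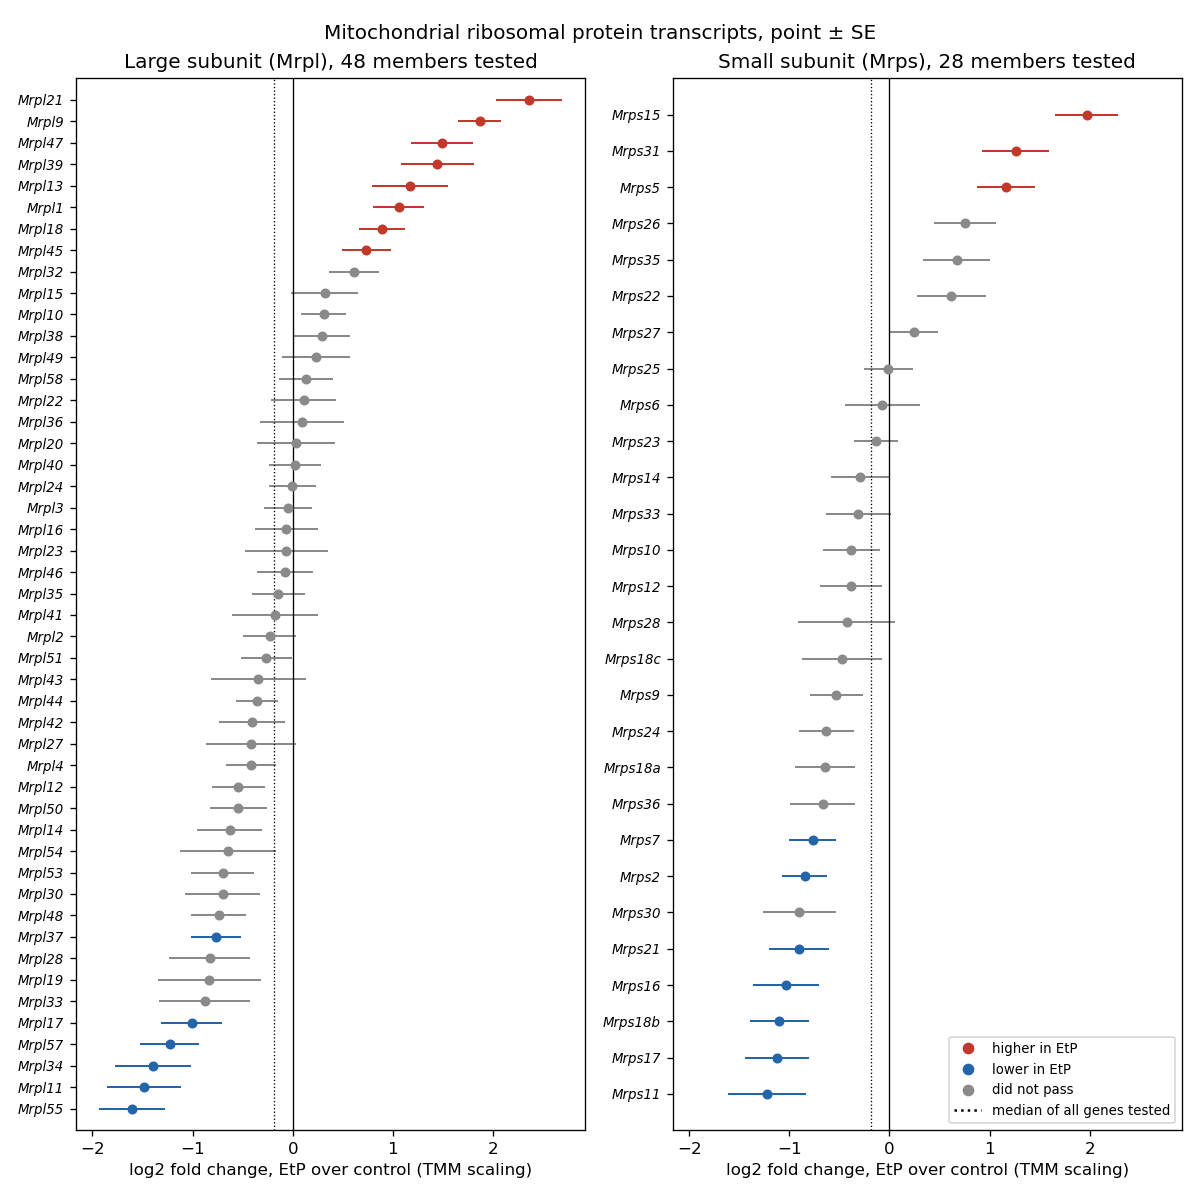
Log2 fold change of each tested mitoribosomal protein gene, EtP over control, with its standard error (edgeR, 3 libraries per group), in 1 panel per subunit; red (higher) and blue (lower) points passed the adjusted threshold of 0.05, grey points did not, and the dotted line is the median of all genes tested. Values run from -1.60 for Mrpl55 to 2.36 for Mrpl21, and most of the small-subunit points lie below 0. Over all genes tested 8450 of 14373 values lie below 0.

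The largest log2 fold change among the members was that of Mrpl21. This gene, which encodes the counterpart of bacterial L21, had 62.9, 69.0 and 56.6 CPM in EtP libraries, against 18.8, 10.5 and 7.40 CPM in control libraries. Every EtP library lay above every control library. Its log2 fold change was 2.36 ± 0.33 (SE, adjusted p = 0.000543), a 5.13-fold increase, and its TPM, a level corrected for length, was 110.5 ± 5.24 in EtP and 28.9 ± 8.03 in control (SD, n = 3 each). Within the subunit Mrpl21 made up 8.15% of the summed TPM in EtP and 1.61% in control, the 4th most abundant message in EtP and the 21st in control. The gene is on chromosome 19 (mm10, 3282901 to 3292837, plus strand). Its exons overlap by 5.82% those of Ighmbp2 on the opposite strand. Ighmbp2 was at 4.34 CPM in EtP and 2.34 CPM in control (log2 fold change 0.89, adjusted p = 0.0561).

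Mrpl9, the counterpart of bacterial L9, had 275, 298 and 235 CPM in EtP libraries and 64.1, 73.2 and 84.0 CPM in control libraries. The groups were far apart, and the 3 control libraries lay close together. The log2 fold change was 1.87 ± 0.21 (SE, adjusted p = 0.000156), a 3.65-fold increase, and Mrpl9 made up 14.1% of the subunit's summed TPM in EtP and 4.67% in control. The gene is on chromosome 3 (mm10, 94443318 to 94451130, plus strand). Its exons overlap by 5.81% those of Oaz3 on the opposite strand, which was at 0.451 CPM in EtP and 1.04 CPM in control.

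Mrpl47, the counterpart of bacterial L29 near the exit of the peptide tunnel, had 62.5, 68.4 and 53.7 CPM in EtP libraries and 33.0, 18.3 and 14.4 CPM in control libraries. The groups did not overlap. Its log2 fold change was 1.49 ± 0.31 (adjusted p = 0.00492), and of its exon bases 24.2% are shared with Actl6a and Ndufb5 on the opposite strand, both of which had negative log2 fold changes that did not pass the test (-0.35 and -0.58). Mrpl21, Mrpl9 and Mrpl47 kept their calls under all 9 scalings and tools tried and without each of the 6 libraries in turn.

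The other increases in the large subunit were less stable. Mrpl1, whose bacterial counterpart forms the mobile stalk where spent transfer RNA leaves, had 32.6, 38.8 and 30.1 CPM in EtP libraries and 21.4, 14.5 and 12.9 CPM in control libraries, without overlap. Its log2 fold change was 1.06 ± 0.26 (adjusted p = 0.0111, and 0.051 without control library 2). Mrpl18, the counterpart of the bacterial protein that binds the 5S ribosomal RNA, had 189, 206 and 168 CPM in EtP libraries and 127, 95.7 and 80.9 CPM in control libraries. Its groups did not overlap either, with a log2 fold change of 0.89 ± 0.23 (adjusted p = 0.014), but the call was lost without EtP library 1 (0.0514), EtP library 2 (0.0535) or control library 2 (0.0608). Mrpl45, which lies at the tunnel exit and ties the mammalian mitoribosome to the inner membrane, had 41.8, 30.7 and 36.7 CPM in EtP libraries and 26.6, 21.8 and 17.3 CPM in control libraries. Its log2 fold change was 0.73 ± 0.24 (adjusted p = 0.043), and the call was lost without any 1 library other than control library 1, at adjusted p between 0.0574 and 0.156. Mrpl39, a protein without a bacterial counterpart that was named after its values were seen because it fell under the abundance limit for naming, had a log2 fold change of 1.44 ± 0.36 (adjusted p = 0.0126, and 0.0544 without EtP library 2). With library size alone as the scaling none of these 4 was called, at adjusted p of 0.104 for Mrpl39 to 0.963 for Mrpl45.

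Mrpl13, the counterpart of bacterial L13, gave opposite results on the 2 scales. It had 141, 172 and 78.7 CPM in EtP libraries and 79.0, 65.6 and 29.2 CPM in control libraries. The lowest EtP library overlapped the highest control library, and the log2 fold change was 1.17 ± 0.38 (adjusted p = 0.0386). The length over which the authors' estimates place its transcripts was 4788, 5102 and 4381 bases in EtP and 2841, 3104 and 2150 bases in control, 1.76-fold longer in EtP. A length that was over 1.5-fold longer in EtP without overlap between the groups was found for 1.33% of all genes tested. On log2(TPM + 1) its difference was -0.30 (limma, adjusted p = 0.342), the opposite sign, and the call on counts was lost without EtP library 1 (0.101), EtP library 2 (0.143), control library 1 (0.0563) or control library 2 (0.0752).

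**Figure D2:**
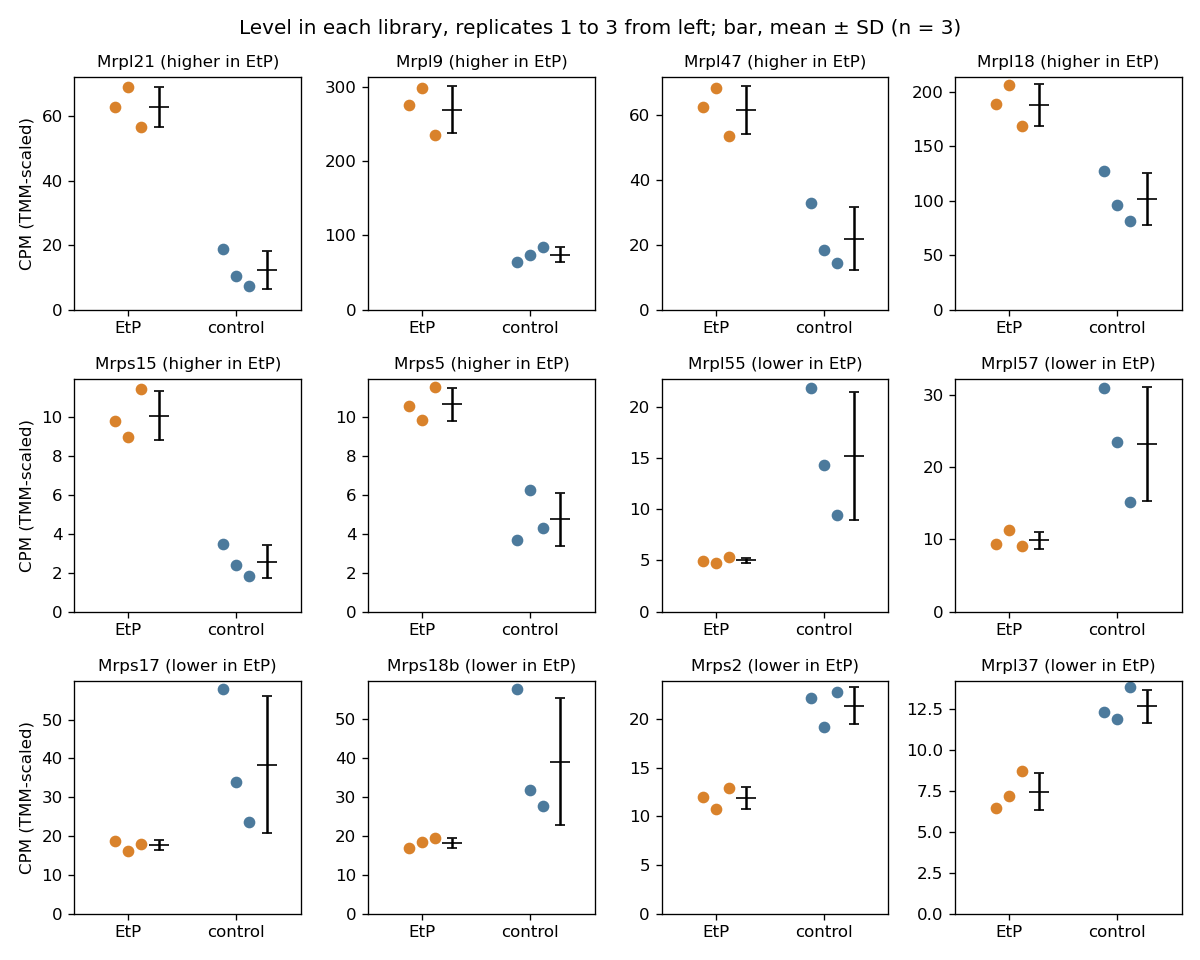
TMM-scaled CPM of 12 mitoribosomal protein genes in each library, EtP left of control, with the group mean and error bars of 1 SD beside the points (n = 3 each). In Mrpl21 and Mrpl9 every EtP library lies above every control library, in Mrpl55 every EtP library lies below, and control library 1 is the highest control for most of the genes that were lower in EtP.

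Among the members that fell, the call of Mrpl55 was kept under the most conditions. Mrpl55, the counterpart of bacterial L31, had 4.92, 4.75 and 5.30 CPM in EtP libraries and 21.8, 14.3 and 9.41 CPM in control libraries. The EtP libraries lay close together and below all controls, and the controls differed among themselves by more than 2-fold. Its log2 fold change was -1.60 ± 0.33 (adjusted p = 0.0047), 3.04-fold lower in EtP, and it was the only one of the 13 lower members called without each of the 6 libraries in turn. The gene is on chromosome 11 (mm10, 59202486 to 59206134, plus strand).

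Mrpl57, a small protein without a bacterial counterpart, had 9.36, 11.3 and 9.11 CPM in EtP libraries and 31.0, 23.5 and 15.2 CPM in control libraries. No EtP library reached the lowest control, and the log2 fold change was -1.23 ± 0.29 (adjusted p = 0.00979), with the call lost without EtP library 1 (0.0588) or EtP library 3 (0.0525). Mrpl17, the counterpart of a bacterial protein at the tunnel exit, had 10.9, 10.7 and 6.71 CPM in EtP libraries and 25.8, 15.2 and 15.9 CPM in control libraries, without overlap. Its log2 fold change of -1.01 ± 0.30 (adjusted p = 0.028) was called without control library 3 but not without any other 1 library (0.0543 to 0.131). Mrpl37, another protein without a bacterial counterpart, had 6.47, 7.18 and 8.70 CPM in EtP libraries and 12.3, 11.9 and 13.8 CPM in control libraries. Here the controls agree closely with one another, and the log2 fold change was -0.76 ± 0.25 (adjusted p = 0.0385), lost under RLE scaling (0.0607), in DESeq2 (0.0501) and without any 1 library other than control library 1 (0.0701 to 0.189).

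Mrpl11, at the base of the stalk that recruits translation factors, and Mrpl34, the counterpart of bacterial L34, were below the abundance limit for naming and were named after their values were seen. Mrpl11 had 2.32, 2.10 and 2.24 CPM in EtP libraries and 9.36, 5.29 and 4.02 CPM in control libraries, with a log2 fold change of -1.48 ± 0.37 (adjusted p = 0.0125). Mrpl34 had 2.32, 2.43 and 2.57 CPM in EtP libraries and 10.1, 4.71 and 4.54 CPM in control libraries, with a log2 fold change of -1.40 ± 0.38 (adjusted p = 0.0178). Neither overlapped between groups, and both calls were lost without any 1 EtP library, at adjusted p between 0.0508 and 0.0793.

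Of the large-subunit members that did not pass the test, Mrpl48 and Mrpl24 were the most abundant. Mrpl48, part of the central protuberance, had 110.3, 110.5 and 90.2 CPM in EtP libraries and 252, 142 and 126 CPM in control libraries. The groups did not overlap, yet the log2 fold change of -0.74 ± 0.28 missed the threshold (adjusted p = 0.0654), and the call is uncertain because Mrpl48-ps is 98.1% identical over 636 bases. Mrpl24, the counterpart of a bacterial protein that starts assembly of the large subunit, had 84.6, 71.7 and 76.1 CPM in EtP libraries and 101.1, 68.6 and 63.3 CPM in control libraries, and its log2 fold change was -0.00 (adjusted p = 0.993). The stalk proteins Mrpl12, of which several copies bind translation factors, and Mrpl10, which anchors it, had log2 fold changes of -0.54 ± 0.27 (adjusted p = 0.147) and 0.31 ± 0.23 (adjusted p = 0.325). Mrpl58, a peptidyl-tRNA hydrolase built into the large subunit, was at 0.13 ± 0.27 (adjusted p = 0.746). Mrpl52, which failed the filter, was at 0.386, 0.442 and 0.580 CPM in EtP libraries and 0.600, 0.264 and 0.454 CPM in control libraries.

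In the small subunit 3 members rose. Mrps15, the counterpart of a bacterial protein that binds the small ribosomal RNA early in assembly, had 9.75, 8.95 and 11.4 CPM in EtP libraries and 3.48, 2.38 and 1.82 CPM in control libraries. Every EtP library was above every control library, with a log2 fold change of 1.97 ± 0.32 (adjusted p = 0.00121), a 3.91-fold increase that was called under all 9 scalings and tools and without each of the 6 libraries. Mrps5, whose bacterial counterpart takes part in decoding accuracy, had 10.5, 9.83 and 11.5 CPM in EtP libraries and 3.66, 6.24 and 4.28 CPM in control libraries. Its groups did not overlap, and the log2 fold change was 1.16 ± 0.29 (adjusted p = 0.0115), also kept without each library in turn. Mrps31, a protein without a bacterial counterpart, had 11, 9.50 and 8.70 CPM in EtP libraries and 6.0, 3.44 and 2.73 CPM in control libraries, and a log2 fold change of 1.26 ± 0.33 (adjusted p = 0.0159), lost without EtP library 1 (0.0639) or control library 2 (0.0642). With library size alone neither Mrps5 (0.24) nor Mrps31 (0.155) was called.

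The 7 small-subunit members that fell all have bacterial counterparts. Mrps17 had 18.7, 16.1 and 18.0 CPM in EtP libraries and 57.8, 33.8 and 23.5 CPM in control libraries. Mrps18b, 1 of 3 mammalian relatives of bacterial S18, had 16.8, 18.3 and 19.3 CPM in EtP libraries and 57.6, 31.7 and 27.6 CPM in control libraries. Mrps2, which lies between head and body of the subunit, had 12, 10.7 and 12.9 CPM in EtP libraries and 22.1, 19.2 and 22.7 CPM in control libraries. In all 3 the EtP libraries lay close together and below every control, while the controls of Mrps17 and Mrps18b were spread widely and those of Mrps2 narrowly. Their log2 fold changes were -1.12 ± 0.32 for Mrps17 (adjusted p = 0.0216), -1.10 ± 0.30 for Mrps18b (adjusted p = 0.0171) and -0.85 ± 0.23 for Mrps2 (adjusted p = 0.0167). The remaining 4 were Mrps16 (-1.03), Mrps21 (-0.91), Mrps7 (-0.77), whose bacterial counterpart organises the head of the subunit, and Mrps11 (-1.23), a platform protein below the abundance limit and named after its values were seen. Adjusted p lay between 0.0323 and 0.0431 for these 4. None of the 7 calls was kept without any 1 of the EtP libraries, so the small-subunit count of lower members was then 0 by edgeR, with adjusted p of these 7 between 0.0546 and 0.162. At an unadjusted p under 0.05 the count was 8 without EtP library 1, 7 without EtP library 2 and 6 without EtP library 3. Control libraries 1 and 2 mattered too, with 4 lower members without control library 1 and 1 without control library 2.

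The 2 other relatives of S18 gave weaker values. Mrps18a had a log2 fold change of -0.64 ± 0.30 (adjusted p = 0.126) and Mrps18c of -0.47 ± 0.40 (adjusted p = 0.398). In structures of the mammalian mitoribosome Mrps18a and Mrps30 (-0.90 ± 0.36, adjusted p = 0.0837) lie in the large subunit despite their names, and Mrps36 (-0.67 ± 0.33, adjusted p = 0.145) is now known as a part of the 2-oxoglutarate dehydrogenase complex. Mrps12, in the decoding centre, was at -0.38 ± 0.31 (adjusted p = 0.374). Mrps34 was at 0 in every EtP library, against 9.46, 10.36 and 8.35 expected counts in control libraries, which is at least 5.80-fold lower in EtP when 3 counts are allowed over the EtP group. Of its exon bases 77.8% are shared with Mapk8ip3 or Nme3, and Mrps34 was too low to be tested. Nme3, on the same strand, was itself called lower (-1.04, adjusted p = 0.0348). Mapk8ip3, on the opposite strand, was not called (0.32, adjusted p = 0.391).

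Small-subunit members with a bacterial counterpart had 7 lower and 2 higher of 17 tested, a median of -0.63 and 15 values below 0, whereas the 11 tested members without one had 0 lower and 1 higher and a median of -0.01. In that class of 11, edgeR gave 1 lower at an unadjusted p under 0.05, DESeq2 and limma-voom gave 0 lower after adjustment, and limma on log2(TPM + 1) gave 5. The same division of the large subunit gave 4 lower and 6 higher of 30 with a counterpart (median -0.06), and 2 lower and 2 higher of 18 without one (median -0.30). Members are classed by symbol, so Mrps18a, Mrps30 and Mrps36 are kept in the small subunit here. With Mrps18a and Mrps30 moved to the large subunit, the small subunit had 3 higher and 7 lower (median -0.38). All 7 lower calls were lost without any 1 EtP library. The difference between members with and without a bacterial counterpart was not tested. Over all genes tested 12.5% were higher and 18.1% lower, and 8450 of 14373 values were below 0.

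The libraries did not contribute evenly to these differences. Control library 1 was the highest of the 3 controls for 63 of the 78 members, whereas control library 2 was highest for 6 and control library 3 for 9. Among all genes tested, control library 1 was the highest control for 41.6%. Without it the large subunit had 9 members called higher and 5 called lower (median 0.15), and the small subunit had 7 and 4 (median 0.03), so that both medians changed sign. Over all genes, 17.6% were then higher and 19.3% lower.

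CPM separated the groups completely for 31 of the 76 tested members. In EtP libraries 11 lay above all controls and 20 lay below, against 19.0% above and 27.9% below over all genes tested. By subunit, 8 large-subunit members lay above and 10 below, and 3 small-subunit members lay above and 10 below.

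On TPM, which fixes the total of each library and applies no TMM factor, the balance was different. In the large subunit 5 tested members lay wholly above the controls and 29 below, and in the small subunit 3 lay above and 20 below. The same held for 6.74% of all genes above and 50.4% below. Limma on log2(TPM + 1) called 24 large-subunit members lower and 4 higher and 18 small-subunit members lower and 2 higher, against 43.1% lower and 4.86% higher over all genes. Scaling by library size alone moved the median of all genes by -0.73 on the log2 scale, to -0.92, and with it 27 large-subunit and 19 small-subunit members were lower and 3 and 1 were higher, against 53.0% of all genes lower and 3.79% higher. None of the 11 members called higher by TMM had a negative log2 fold change under library size alone. The count of lower members therefore depends on the scaling, in the same direction as for all genes.

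The ratio between the subunits does not depend on library scaling. Summed TPM of the large subunit was 1309, 1392 and 1365 in EtP libraries and 2030, 1663 and 1701 in control libraries, with means of 1355 ± 42.4 in EtP and 1798 ± 202 in control (SD, n = 3 each). Summed TPM of the small subunit was 748, 849 and 801 in EtP libraries and 2115, 1500 and 1421 in control libraries, with means of 799 ± 50.5 in EtP and 1679 ± 380 in control. Neither sum overlapped between groups, and the EtP mean was 75.4% of the control mean for the large subunit and 47.6% for the small. Most single genes shifted the same way on this scale, with 50.4% of all genes tested wholly below the controls and 6.74% wholly above. Whether the sums differ from that shift was not tested. The small-over-large ratio was 0.572, 0.610 and 0.587 in EtP libraries and 1.04, 0.902 and 0.836 in control libraries. Every EtP library lay below every control library, and the means were 0.590 ± 0.0194 in EtP and 0.926 ± 0.105 in control. The sums hold only genes with Mrpl or Mrps symbols, and the size of the ratio depends on that choice. Left out is Dap3, a small-subunit protein with 232, 224 and 221 TPM in EtP libraries and 109, 139 and 152 TPM in control libraries. Of the 5 mitoribosome genes with other symbols, 1 lay wholly above the controls on TPM and 3 wholly below. With 3 libraries against 3 an exact two-sided permutation test cannot go below 0.10, so none is given.

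**Figure D3:**
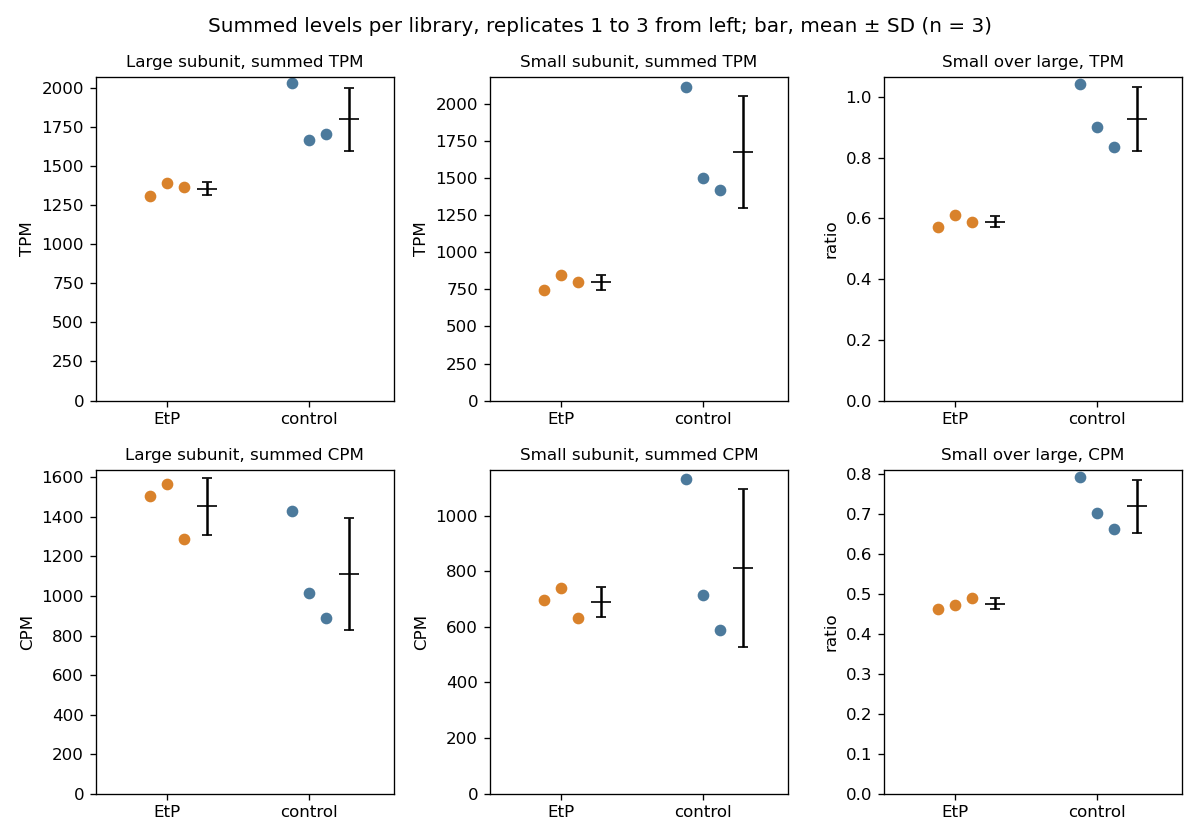
Summed TPM and summed TMM-scaled CPM of the large- and small-subunit genes, and the ratio of small to large, in each library, EtP left of control, with group means. The ratio on TPM lies between 0.572 and 0.610 in EtP and between 0.836 and 1.04 in control, while the summed CPM of both subunits overlaps between groups.

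Summed CPM gave the same order for the ratio, 0.462 to 0.490 in EtP libraries and 0.662 to 0.792 in control libraries, although the sums themselves overlapped on that scale. The large-subunit sum was 1453 ± 145 CPM in EtP and 1112 ± 283 CPM in control, and the small-subunit sum was 689 ± 54.9 CPM in EtP and 812 ± 285 CPM in control. The size of the ratio rested on which genes were summed. Without the 33 members whose exons overlap another gene it was 1.57 ± 0.0877 in EtP and 1.79 ± 0.139 in control, and the highest EtP library (1.674) lay just under the lowest control (1.679). Without the 3 most abundant members of each subunit it was 0.497 ± 0.0233 in EtP and 0.680 ± 0.0447 in control.

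A few abundant messages carried much of the sums. On TPM 50.4% of all genes tested lay wholly below the controls and 6.74% wholly above. The share of all genes with a lower mean TPM is not given here. In the small subunit 25 of 29 members had a lower mean TPM in EtP, and Mrps33, Mrps14 and Mrps21 together made up 49.5% of the net difference of -879 TPM. Mrps33, a protein without a bacterial counterpart, was the most abundant message among the Mrps genes. It had 175, 212 and 135 TPM in EtP libraries and 498, 308 and 287 TPM in control libraries. Mrps14, the counterpart of a bacterial protein of the head, had 105, 156 and 148 TPM in EtP libraries and 340, 250 and 212 TPM in control libraries. Both were lower in every EtP library, with log2(TPM + 1) differences of -1.04 (limma, adjusted p = 0.00896) and -0.96 (adjusted p = 0.00915), but on TMM-scaled counts their log2 fold changes of -0.31 ± 0.32 and -0.29 ± 0.30 did not pass the test (adjusted p = 0.497 and 0.489). In the large subunit 42 of 49 members had a lower mean TPM in EtP. Mrpl48, Mrpl53 and Mrpl57 gave the largest decreases, -281 TPM together, and Mrpl18, Mrpl21 and Mrpl9 the largest increases, 219 TPM together, within a net difference of -443 TPM.

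Mrps25, a small-subunit protein without a bacterial counterpart, also gave different results on the 2 scales. It had 92.7, 95.4 and 83.3 CPM in EtP libraries and 121, 81.0 and 71.4 CPM in control libraries. These overlapped, and the log2 fold change was -0.01 ± 0.24 (adjusted p = 0.981). On TPM it had 67.7, 63.8 and 61.7 in EtP libraries and 216, 155 and 160 in control libraries, fully apart, with a log2(TPM + 1) difference of -1.43 (limma, adjusted p = 0.000482). The estimated transcript length was 1459, 1605 and 1692 bases in EtP and 882, 1002 and 996 bases in control, and 69.8% of its exon bases lie opposite Nr2c2. Over the 76 tested members the Spearman correlation between mean estimated length and log2 fold change was 0.35, and over all 14373 genes tested it was 0.15. Genes are not independent, and both quantities come from the same libraries, so these are descriptions. The median length was 1531 bases for members called higher, 894 bases for those called lower and 988 bases for the rest.

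Counts of some members could hold reads of other genes. Exons of 33 of the 78 members overlap another annotated gene, and the protocol does not mark strand, so reads from the shared stretch cannot be assigned. Of the genes that overlap a called member and were themselves tested, none passed the test. Mrps11 and Mrpl46, 1 in each subunit, lie on opposite strands of chromosome 7, and Mrpl46 had 9.46, 6.19 and 6.79 CPM in EtP libraries and 9.24, 6.82 and 7.59 CPM in control libraries with a log2 fold change of -0.08 ± 0.28 (adjusted p = 0.862). A transcript of another gene at least 95% identical over at least 200 bases was found for 28 members, among them 7 of the 24 called (Mrpl13, Mrpl21, Mrpl47, Mrps16, Mrps18b, Mrps21 and Mrps5), and the counts of these 7 are uncertain to that extent. For Mrpl13 and Mrpl47 it belongs to an overlapping gene on the opposite strand, Mtbp and Actl6a. Such transcripts of Mrpl21, Mrps16, Mrps18b, Mrps21 and Mrps5 belong to genes at 0.292 CPM or less in both groups.

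The number of calls moved with the setting for the members as it did for all genes. In the large subunit 4 to 9 members were higher and 1 to 8 lower when 1 library was left out, and in the small subunit 2 to 7 were higher and 0 to 8 lower. Over all genes 7.05% were higher and 10.7% lower without EtP library 1, 7.73% and 11.0% without EtP library 2, and 9.42% and 11.1% without EtP library 3. Without control library 2 the shares were 8.73% and 12.9%, and without control library 3 they were 13.3% and 18.0%. Among the other settings, RLE scaling gave 14.4% higher and 15.8% lower, DESeq2 16.0% and 16.4%, limma-voom 12.6% and 17.1%, and the replicate block 16.0% and 21.0%. A minimum of 10 CPM in 3 libraries gave 14.0% and 20.8%, log2(TPM + 0.1) gave 4.85% and 43.1%, and an adjusted p of 0.01 gave 6.39% and 9.76%.

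**Figure D4:**
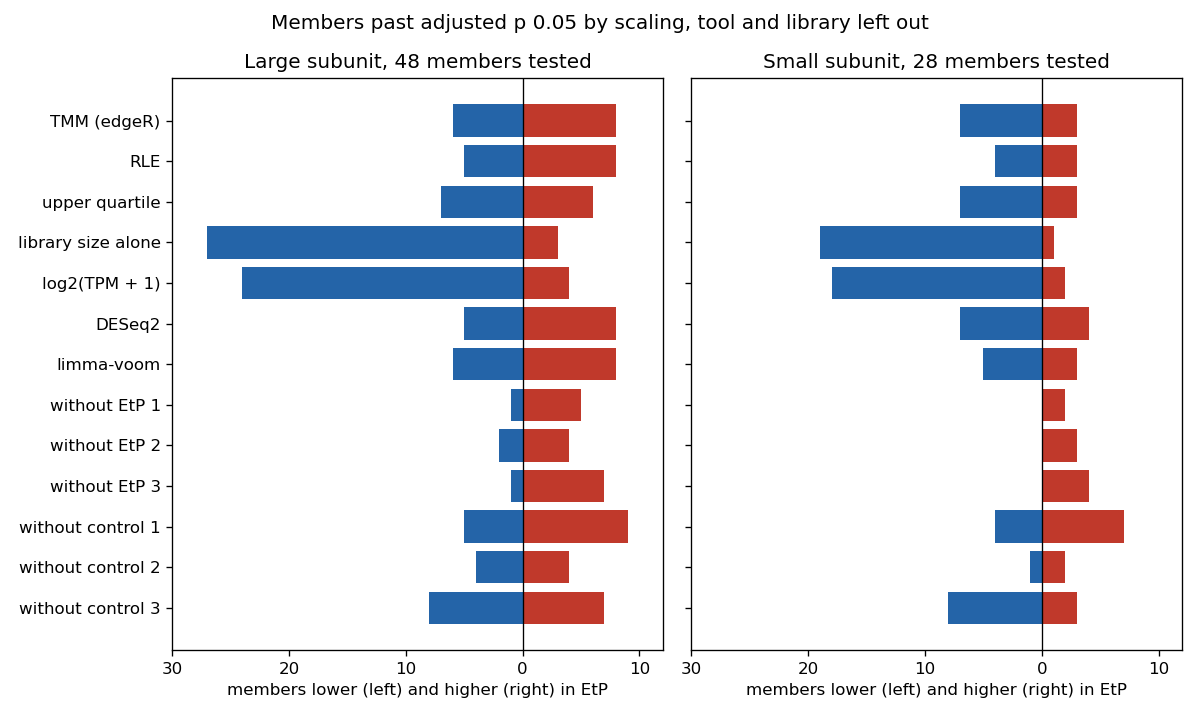
Number of tested members called lower (left) and higher (right) in EtP at an adjusted p of 0.05 under each scaling, tool and library left out, by subunit. The main setting gives 6 lower and 8 higher in the large subunit and 7 lower and 3 higher in the small subunit, library size alone gives 27 and 19 lower, and no small-subunit member is lower when any 1 EtP library is left out.

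The mitoribosome also has proteins that carry other symbols. Dap3, the GTP-binding protein of the small subunit, had 289.7, 273 and 233 CPM in EtP libraries and 93.1, 99.2 and 93.9 CPM in control libraries. The groups were far apart, with a log2 fold change of 1.48 ± 0.20 (adjusted p = 0.000438). The other 4 of the list of 5 (Ptcd3, Chchd1, Aurkaip1 and Gadd45gip1) did not pass the test, with log2 fold changes from -0.83 to 0.46. By edgeR no gene of this list was lower, also at an unadjusted p under 0.05 and by DESeq2 or limma-voom, whereas limma on log2(TPM + 1) called 2 lower. Over all genes tested edgeR called 12.5% higher and 18.1% lower, and limma on log2(TPM + 1) called 43.1% lower.

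Of 24 tested mitoribosome assembly factors, 5 rose and 1 fell, with a median of 0.17, whereas library size alone gave 1 higher and 11 lower. Among all genes tested 12.5% rose and 18.1% fell, and library size alone gave 3.79% higher and 53.0% lower. Rpusd4, which makes a pseudouridine in the large mitochondrial ribosomal RNA, had 20.9, 21.0 and 16.9 CPM in EtP libraries and 7.08, 4.39 and 5.13 CPM in control libraries, without overlap (log2 fold change 1.82 ± 0.27, adjusted p = 0.000761). Nsun4 and Mterf4, which act as a pair in joining the subunits, rose by 0.79 ± 0.19 (adjusted p = 0.0117) and 1.04 ± 0.27 (adjusted p = 0.0144) on the log2 scale. The Nsun4 call was lost without EtP library 1 (0.0559), and the Mterf4 call without EtP library 1 (0.0599) or control library 2 (0.0611), and neither was called with library size alone (0.833 for Nsun4 and 0.275 for Mterf4).

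Of 14 mitochondrial translation factors 2 rose and 1 fell, and with library size alone 0 were higher and 4 lower. For the lists of this paragraph, the shares over all genes tested are 12.5% higher and 18.1% lower by edgeR. They are 3.79% and 53.0% with library size alone, and 4.86% and 43.1% by limma on log2(TPM + 1). The elongation factor Tufm had 12.5, 10.6 and 10.5 CPM in EtP libraries and 4.20, 4.92 and 4.54 CPM in control libraries, fully apart (1.30 ± 0.25, adjusted p = 0.0036, and 0.0953 with library size alone). The recycling factor Mrrf had 33.9, 31.9 and 35.8 CPM in EtP libraries and 80.0, 53.3 and 44.2 CPM in control libraries, also apart (-0.80 ± 0.26, adjusted p = 0.0355), and its call was lost without any 1 library other than control library 3 (0.0805 to 0.141). Of 13 mitochondrial aminoacyl-tRNA synthetases 3 rose and 0 fell (1 higher and 3 lower with library size alone), with 1 lower at an unadjusted p under 0.05 and 0 lower after adjustment by DESeq2 or limma-voom. Lars2, which charges the mitochondrial leucine transfer RNAs, had 11508, 15926 and 8980 CPM in EtP libraries and 2074, 4671 and 4684 CPM in control libraries (1.67 ± 0.34, adjusted p = 0.0043). Its mean over all libraries was 7974 CPM, far above the next synthetase of the list, Fars2, at 66.0 CPM. Whether all reads counted for Lars2 come from its message was not tested. Of 16 genes of mitochondrial transcription and RNA processing 0 rose and 1 fell by edgeR, with 2 higher at an unadjusted p under 0.05, 2 higher in DESeq2 and 0 in limma-voom. Limma on log2(TPM + 1) called 5 of the 16 lower and 0 higher, and library size alone 6 lower and 0 higher.

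The mitoribosome translates 13 proteins encoded by mitochondrial DNA, and of their messages 5 fell and 0 rose, with a median log2 fold change of -0.79, and none was higher at an unadjusted p under 0.05, in DESeq2 or in limma-voom. With library size alone, and likewise by limma on log2(TPM + 1), 12 were lower and 0 higher. These settings called 53.0% and 43.1% of all genes tested lower. Subunits of complex I and the cytochrome b of complex III showed the smallest p. mt-Nd5 was at 565, 471 and 332 CPM in EtP libraries and 1555, 1357 and 1574 CPM in control libraries, fully apart (-1.71 ± 0.24, adjusted p = 0.000536). The log2 fold change was -2.43 ± 0.35 for mt-Nd3 (adjusted p = 0.00062) and -1.79 ± 0.30 for mt-Cytb (adjusted p = 0.00162). Of 83 tested cytosolic ribosomal protein genes 35 fell and 6 rose, and their median was -0.87. Among all genes tested 18.1% fell and 12.5% rose, and the median was -0.19. The medians of the mitoribosomal subunits, -0.16 and -0.41, lay nearer to the median of all genes, and the difference from the cytosolic list was not tested.

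Promoters of nuclear genes for mitochondrial proteins are known for sites of ETS-family factors such as GABP (NRF2), of NRF1 and of YY1. RefSeq promoter sequences (GRCm38.p6) from 250 bases before to 50 after the start were matched for 69 of the 78 members and searched on both strands for the cores CCGGAAG (ETS), GCGCATGC (NRF1) and ATGGCGG (YY1), which do not contain one another and were chosen with the expression results known. The ETS core was in 26 of the 69 member promoters (37.7%), against 19.5% of the promoters of genes tested and 9.93% of all promoters. The NRF1 core was in 8 (11.6%), against 6.01% of genes tested and 3.05% of all, and the YY1 core in 13 (18.8%), against 8.78% and 4.69%. By call, the ETS core was in 2 of 10 called higher, 6 of 13 called lower and 18 of 46 called neither. The NRF1 core was in 2 of 10 called higher, 2 of 13 called lower and 4 of 46 called neither. For the YY1 core these were 2 of 10, 3 of 13 and 8 of 46. Called members in both directions carry each core, and the differences between the calls were not tested. A match is a run of letters, not a bound site.

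A selection of the matches in called members, chosen to show both cores in members that were higher and in members that were lower, is given with 10 bases on either side, 5′ to 3′ on the strand of the gene and with the core in capitals, first the ETS core and then the NRF1 core. CTTCCGG is the ETS core read on the other strand. Not shown are the ETS cores of Mrpl17 and Mrps18b, a second ETS core of Mrps16 and both NRF1 cores of Mrps18b.
Mrpl21 (higher in EtP, chr19:3283039-3283065, plus strand): gctgcttccgCTTCCGGttgggactgt
Mrpl18 (higher in EtP, chr17:12916315-12916341, minus strand): actgaaaacgCCGGAAGtagggggctg
Mrpl34 (lower in EtP, chr8:71464879-71464905, plus strand): actacagctcCCGGAAGgccccgcggc
Mrpl57 (lower in EtP, chr14:57826233-57826259, plus strand): cccagagagaCCGGAAGcagcgcgccg
Mrps16 (lower in EtP, chr14:20393548-20393574, minus strand): tgggggcgctCTTCCGGgcttcaggct
Mrps21 (lower in EtP, chr3:95871480-95871506, minus strand): gtagcttccgCTTCCGGtccgcagaga
Mrpl9 (higher in EtP, chr3:94443298-94443325, plus strand): aggcgcagctGCGCATGCgcggggtcct
Mrpl39 (higher in EtP, chr16:84735352-84735379, minus strand): aaggagaggcGCGCATGCgcccccgcgt
Mrpl17 (lower in EtP, chr7:105811081-105811108, minus strand): ccgagttactGCGCATGCgtcctctgag

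Positions here count from RefSeq starts, which differ from the GENCODE starts given above for Mrpl21 and Mrpl9. The ETS core of Mrpl34 begins 37 bases before the start, those of Mrps16 begin 74 bases before it and at base 25 of the transcript, and those of Mrpl21, Mrpl57 and Mrps21 begin at bases 8, 5 and 19 of the transcript. The NRF1 cores of Mrpl9 and Mrpl17 begin 28 and 11 bases before the start, and in Mrpl9 and Mrpl39 the bases around the core match it on both strands. Mrpl9, the member with the highest CPM among those that rose, and Mrpl17, which fell, thus hold the same run of letters close to the start.

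Among the factors, Gabpa, the DNA-binding part of GABP, had 0.483, 0 and 0.166 CPM in EtP libraries and 5.88, 6.77 and 6.82 CPM in control libraries. The groups were fully apart, with a log2 fold change of -4.82 ± 0.57 (adjusted p = 0.000193). It was below the abundance limit for naming and was named after its values were seen. Nrf1 had 55.4, 46.6 and 51.9 CPM in EtP libraries and 26.0, 51.7 and 42.4 CPM in control libraries, which overlapped (0.36 ± 0.27, adjusted p = 0.337), and Yy1 was at -0.51 (adjusted p = 0.291). Ppargc1b, a coactivator of mitochondrial genes, rose by 1.24 ± 0.32 on the log2 scale (adjusted p = 0.0147), a call lost without EtP library 3 (0.0548) or control library 2 (0.057), with library size alone (0.52, adjusted p = 0.202) and on log2(TPM + 1) (0.35, adjusted p = 0.218), and was also named after its values were seen. Of the 8 regulators tested, 1 rose and 2 fell, against 12.5% and 18.1% of all genes tested.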

How the data were processed

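Per the labels' protocols, 3 EtP and 3 control libraries were made from polyadenylated RNA of early 2-cell embryos by Smart-seq2, an oligo-dT-primed full-length method without strand marking, and read from both ends. The submitters' processing notes name cutadapt 1.16, STAR and the build mm10. No source used here gives the release of STAR or the program that made the gene counts.

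The deposited expected counts are the authors' estimates of fragments per gene, which share ambiguous fragments between genes, and whole numbers were made of them for the tests. TPM, as deposited by the authors, is a level corrected for transcript length and library depth. Estimated lengths are the mean transcript lengths in the deposited tables. Totals were 11173295 to 14737152 expected counts per library. PCR copies carry no molecular identifiers. No 2 libraries agreed within sampling noise.

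Groups were compared by edgeR 4.0.16 (R 4.3.3) over all 14373 genes that passed filterByExpr, with TMM scaling, robust quasi-likelihood fits and Benjamini-Hochberg adjustment at 0.05; log2 fold changes are EtP over control with SE. TPM was tested by limma 3.58.1 on log2(TPM + 1), a scale that understates changes of low genes. Alternatives were other scalings, filters, a pseudocount of 0.1, limma-voom, DESeq2 1.42.0, a fit without mitochondrially encoded genes, a replicate block, an adjusted p of 0.01 and leaving out each library. The edgeR step was tested on simulated data over 13726 genes and called 22.1% of 95 genes changed 2-fold and 81.1% of 95 genes changed 4-fold. Positions come from GENCODE M21 (mm10). Members and gene lists were chosen with earlier results of these data known. Named members were, in each subunit, up to 8 called per direction with a mean of at least 5 CPM, the 2 highest by TPM, the 2 highest uncalled by CPM, those that failed the filter and some of known particular position, and up to 3 called genes per other list.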

Additional observations from a re-analysis of the deposited data

How the results depend on the processing

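With TMM scaling 8 large-subunit members were higher and 6 lower (median -0.16), 3 small-subunit members were higher and 7 lower (median -0.41), and 4399 of all genes were called. With library size alone the counts were 3 and 27 (median -0.88) in the large subunit, 1 and 19 (median -1.12) in the small, and 8162 genes. On log2(TPM + 1) they were 4 and 24 (median -0.65), 18 small-subunit members lower (median -1.03) and 6893 genes, and with a pseudocount of 0.1 they were 4 and 24 (median -0.78), 18 lower (median -1.09) and 6887 genes. RLE scaling left 4 small-subunit members lower. Requiring 10 CPM in 3 libraries left 4 large-subunit and 0 small-subunit members higher, among 2432 genes called, and Mrps15, Mrps5 and Mrps31 did not pass that minimum and so were not tested. An adjusted p of 0.01 left 3 higher and 2 lower in the large subunit, 1 and 0 in the small, and 2321 genes. Without members that overlap another gene, 3 large-subunit members were higher and 4 small-subunit members lower. The small-over-large TPM ratio differed by -0.34 (EtP minus control), by -0.22 without overlapping members and by -0.18 without the 3 most abundant of each subunit.

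Leaving out 1 library at a time gave 4 to 9 large-subunit members higher and 1 to 8 lower (median -0.31 to 0.15), 2 to 7 small-subunit members higher and 0 to 8 lower (median -0.54 to 0.03), and 2755 to 5524 genes. The log2 ratio of summed TPM then ran from -0.46 to -0.31 for the large and from -1.18 to -0.87 for the small subunit, and the ratio difference from -0.38 to -0.28. Whether equal replicate numbers mark pairs could not be settled from deviations from the group means, because the deviations of a group cancel out. For equal numbers they correlated at 0.127, 0.0032 and 0.273. That was the best match for EtP libraries 1 and 3, while EtP library 2 correlated best with control library 1 (0.111). With a replicate block 9 large-subunit members were higher and 7 lower, 6 small-subunit members were higher and 7 lower, and 16.0% and 21.0% of all genes were higher and lower.

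Some uncalled members changed sign, and the cause was not tested. Mrpl24 was at 0.079 with RLE and DESeq2, 0.045 with no filter, 0.025 with limma-voom, 0.024 with the block, and -0.094 to 0.33 with 1 library left out. Leaving out 1 library gave -0.50 to 0.22 for Mrps33, -0.49 to 0.18 for Mrps14, -0.67 to 0.25 for Mrps18c, -0.49 to 0.0067 for Mrps12 and -0.24 to 0.15 for Mrpl46, the highest in each without control library 1. Mrpl46 was at 0.013 with RLE and DESeq2. With library size alone, Mrpl10, Mrpl58 and Nrf1 were at -0.43, -0.59 and -0.39. On TPM with pseudocounts of 1 and 0.1, Mrpl10 was at -0.35 and -0.36, Mrpl58 at -0.52 and -0.53, Nrf1 at -0.24 and -0.25, and the called Mrpl13 at -0.30 with both. Mrpl58 was at -0.12 with the 10 CPM minimum.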
